A study of Mus musculus with 16 samples.

Results

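J segments TRAJ37 to TRAJ47 form a stretch in the V-proximal part of the TCRα joining cluster, and their rearrangements were taken from 16 TCRα repertoires of CD8 T cells. A sequence belonged to the set when its best J hit was a TRAJ segment numbered 37 to 47. The tables held 12201 such CDR3 nucleotide sequences out of 83992, and they used 9 of the 43 TRAJ segments found: TRAJ47, TRAJ45, TRAJ44, TRAJ43, TRAJ42, TRAJ40, TRAJ39, TRAJ38 and TRAJ37. No sequence was assigned to TRAJ41 or TRAJ46.

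The libraries came from mice on the C57BL/6 background that carried a Foxp3-GFP reporter in both genotypes, Themis+/+Foxp3-GFP and Themis-/-Foxp3-GFP. Themis is a T lineage protein that acts in TCR signalling during thymic selection, and it was absent from all cells of the Themis-/- animals, not from T cells only. For each genotype there were 2 libraries of single positive CD8 thymocytes and 2 of lymph node (LN) CD8 T cells, from all CD8 cells and again from cells sorted for the Vα3.2 chain. That makes 8 groups of 2. The labels count each library as 1 mouse, whereas the methods describe LNs pooled from several mice before sorting, so the spread within a group may be technical in part. The labels give no ages.

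The TCRα chain is built by joining a V segment to a J segment in a CD4+CD8+ thymocyte. The first joins pair J-proximal V segments with the V-proximal end of the J cluster, and later joins on the same allele replace them with more distal V segments and J segments further downstream. The part of the J segment that enters the CDR3, together with nucleotides trimmed and added at the joint, sets the loop that faces the peptide.

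The 9 segments lie on the forward strand of chromosome 14 in the GENCODE annotation of GRCm38, each as a single J exon, over 9778 bases. They are printed from 5′ to 3′ along the locus because every CDR3 described here ends in one of them, with capitals for the bases that belong to the CDR3 when nothing is trimmed.
TRAJ47, chr14:54171800-54171856: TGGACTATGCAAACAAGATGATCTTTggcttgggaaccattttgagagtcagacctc
TRAJ45, chr14:54172828-54172890: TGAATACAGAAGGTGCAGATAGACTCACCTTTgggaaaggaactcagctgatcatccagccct
TRAJ44, chr14:54173690-54173750: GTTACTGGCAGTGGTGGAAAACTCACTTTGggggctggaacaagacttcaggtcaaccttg
TRAJ43, chr14:54174742-54174798: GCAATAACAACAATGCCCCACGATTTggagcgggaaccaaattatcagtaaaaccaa
TRAJ42, chr14:54175773-54175836: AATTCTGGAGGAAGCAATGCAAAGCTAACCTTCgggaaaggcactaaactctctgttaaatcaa
TRAJ40, chr14:54177921-54177981: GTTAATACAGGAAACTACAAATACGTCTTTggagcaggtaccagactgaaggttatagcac
TRAJ39, chr14:54179962-54180024: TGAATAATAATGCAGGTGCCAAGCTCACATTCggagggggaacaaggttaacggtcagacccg
TRAJ38, chr14:54180574-54180635: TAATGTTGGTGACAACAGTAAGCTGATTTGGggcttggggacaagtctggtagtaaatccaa
TRAJ37, chr14:54181518-54181577: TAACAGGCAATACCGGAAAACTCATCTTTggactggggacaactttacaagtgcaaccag
The CDR3 part is shortest in TRAJ47 and TRAJ43, with 26 bases each, and longest in TRAJ42, with 33. Most members close the CDR3 with phenylalanine, whereas TRAJ38 closes it with tryptophan and TRAJ44 with leucine.

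The all CD8 libraries held between 57455 and 146191 reads in 4357 to 16670 sequences, and the sorted libraries between 10338 and 25247 reads in 84 to 1610 sequences. Reads carried no molecular identifiers, so they count amplified copies. TRAV9, the family that encodes Vα3.2, took 98.8% to 99.9% of reads in the sorted libraries and 2.03% to 4.74% in the all CD8 libraries. The members numbered 512 to 2459 sequences in each all CD8 library but only 6 to 115 in each sorted library, and both sorted replicates 1 of the thymus held 6.

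The all CD8 and the sorted libraries differed in the 3′ end of the CDR3. In all CD8 libraries 37.4% to 49.5% of member sequences, with 18.2% to 27.6% of member reads, carried a base other than the germline J base within the last 10 bases of the CDR3. Over all segments the shares were higher, at 49.8% to 57.1% of sequences and 30.2% to 36.7% of reads. The highest shares of sequences over all segments were in Themis-/- LN, at 57.0% and 57.1%. In the sorted libraries there were 7 such changes in all, in 6 of 377 member sequences. Of the 5976 changes in all CD8 libraries, 98.0% lay 4 to 9 bases before the CDR3 end, 73.8% were T-to-G and 16% were G-to-T. Positions are counted from 1 at the 5′ end of the J segments printed above. The most frequent were T26G and T22G in TRAJ40, in 35.1% and 34.1% of its all CD8 sequences, T25G in TRAJ37, in 35.7%, and T22G in TRAJ47, in 34.9%. None of these 4 was found in a sorted library. For 82.5% to 87.8% of the changed member sequences the same CDR3 with the germline bases was present in the same library.

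The share of changed sequences differed between segments. In TRAJ38, with 3 T bases among the 6 positions, 69.1% ± 4.51 (SD, n = 8 libraries) of sequences were changed, and in TRAJ40, with 2, 64.0% ± 3.06. In TRAJ39, TRAJ45 and TRAJ42, with 1 T base each, the shares were 9.96% ± 3.06, 10.2% ± 2.81 and 7.85% ± 3.01. That T base lies 8 bases before the CDR3 end, and its change to G was in 0.394%, 1.03% and 0.661% of their sequences. TRAJ47, TRAJ44 and TRAJ37 also have 2 T bases but had lower means than TRAJ40, from 39.2% ± 1.88 in TRAJ37 to 52.5% ± 4.97 in TRAJ47. Whether the number or the position of T bases sets the share was not tested. Of all changes, 46.3% lay 5 bases before the end and 0.820% lay 8 bases before it. TRAJ43, with 0 T bases among the 6 positions, had 30.6% ± 7.70, and G22T was in 18.5% of its all CD8 sequences. Distinct sequences are therefore counted below after the changed bases were set back to germline and identical sequences of a library were joined. These merged sequences numbered 7655 members in the all CD8 libraries, where TRAJ38 went from 886 to 387 and TRAJ45 from 1165 to 1072. The mean share of the members in these libraries was 14.9% of sequences as deposited and 17.4% of merged sequences. Counts of reads per segment do not depend on this step. The 2 kinds of library were also exported in 2 table formats, so the origin of the changes, sample or processing, cannot be told apart.

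**Figure D1:**
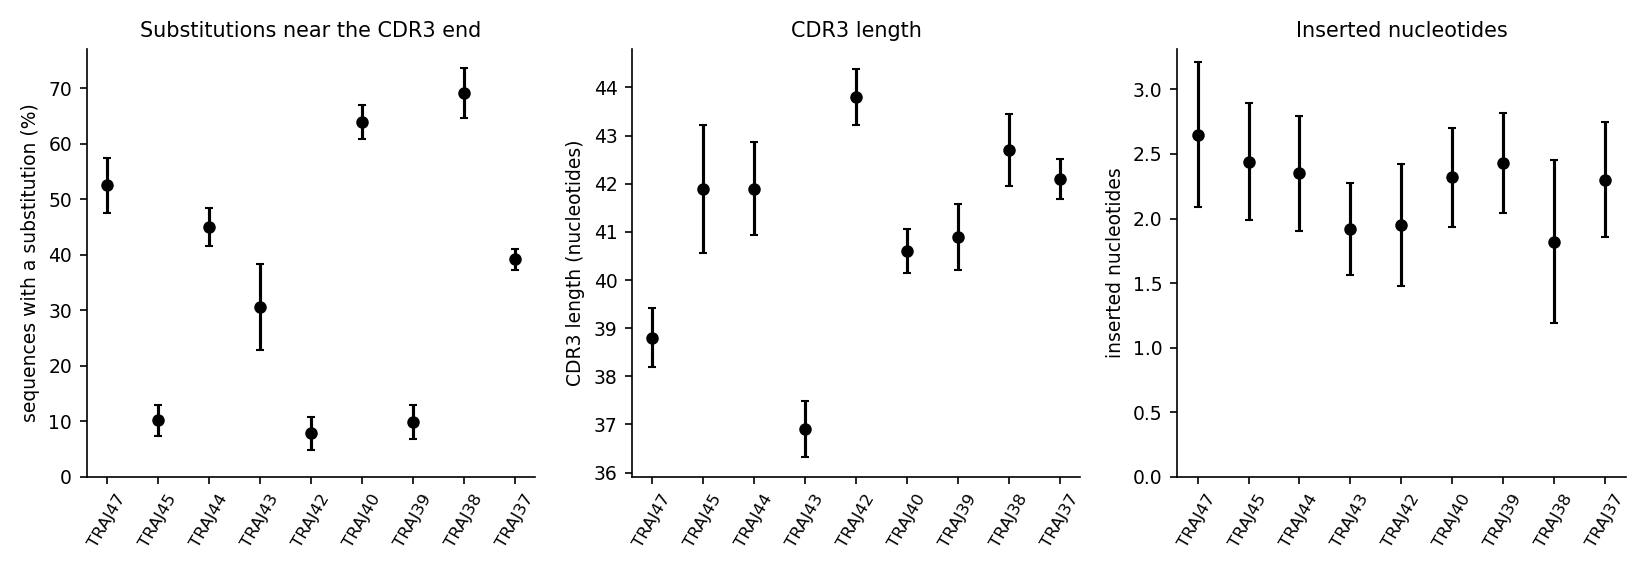
Means over the 8 all CD8 libraries (bars, SD) for each member segment in locus order, of the percent of sequences with a changed base in the last 10 bases of the CDR3 (left), the CDR3 length in nucleotides per read (middle; the axis does not start at 0) and the inserted nucleotides per read (right). TRAJ38 and TRAJ40 stand highest on the left, and TRAJ43 has the shortest CDR3s at 36.9 nucleotides.

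TRAJ40 was the most used member in all CD8 libraries and TRAJ38 the least. TRAJ40 took 2.31% to 4.43% of reads, mean 3.28%. TRAJ37 followed with 1.96% to 3.21%, mean 2.64%, then TRAJ45 with 1.06% to 3.57%, mean 2.54%, and TRAJ39 with 1.26% to 3.43%, mean 2.26%. TRAJ47, TRAJ43, TRAJ42 and TRAJ44 had means of 1.86%, 1.58%, 1.27% and 1.0%. TRAJ38 took 0.447% to 0.924%, mean 0.654%. The ranges of neighbours in this order overlapped in every case, and TRAJ38 and TRAJ40 did not overlap. By merged sequences the order was the same, from 3.24% for TRAJ40 to 0.909% for TRAJ38.

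The first comparison asks whether loss of Themis shifts the use of these segments. In all CD8 cells the members together were less used in Themis-/- than in Themis+/+ libraries of the same tissue. In the thymus the Themis+/+ libraries had 16% and 21.9% of reads with a member segment, and the Themis-/- libraries had 13.6% and 14.1%. In LN the Themis+/+ libraries had 21.2% and 18.5%, and the Themis-/- libraries had 16.1% and 15.4%. The genotypes did not overlap within either tissue, although the lower Themis+/+ thymus library lay just below the higher Themis-/- LN library. The difference was -4.61 percentage points on average over the 2 tissues (exact permutation test within tissues, two-sided, p = 0.0556, n = 8 libraries), which is the smallest p this design allows.

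By merged sequences the 4 Themis-/- libraries lay between 13.8% and 15.3% and the 4 Themis+/+ libraries between 17.2% and 22.1%, with no overlap across tissues. The difference was -5.64 percentage points (exact permutation test, two-sided, p = 0.0556, the smallest possible). With the sequences as deposited it was -5.12, between 11.7% to 13.4% and 14.8% to 19.2%.

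**Figure D2:**
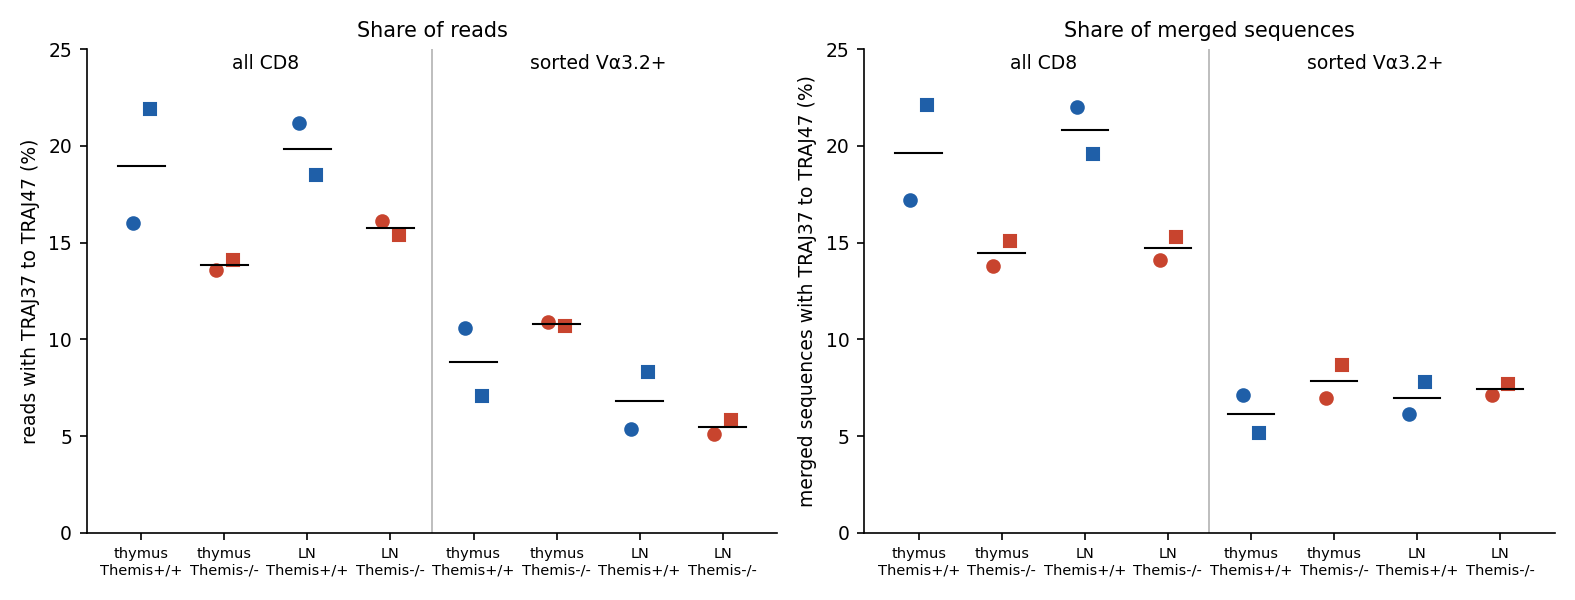
Percent of reads (left) and of merged CDR3 sequences (right) with TRAJ37 to TRAJ47 in each of the 16 libraries, circles for replicate 1 and squares for replicate 2, blue for Themis+/+ and red for Themis-/-, with black lines for the mean of each pair. In all CD8 cells every Themis-/- point lies below the Themis+/+ points of its tissue, and every sorted library lies below every all CD8 library.

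No single member passed the test across segments. In the edgeR quasi-likelihood test over all 43 segments, 0 of 9 members passed an adjusted p of 0.05 in the thymus and 0 of 9 in LN, where 2.33% of all segments did in each tissue. At an unadjusted p under 0.05 there were 0 members of 9 in either tissue, against 8 of 43 segments in the thymus and 5 of 43 in LN, and DESeq2 called 0 members as well, with 0% of all segments in the thymus and 4.65% in LN. The fitted change was negative for 8 of 9 members in the thymus and for 7 of 9 in LN, with medians of -0.25 and -0.30 on the log2 scale against 0.01 over all segments in both tissues.

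TRAJ39 and TRAJ45 had the largest fitted decreases in the thymus. TRAJ45 took 2.59% and 3.57% of reads in Themis+/+ thymus and 1.74% and 1.85% in Themis-/- thymus (log2 fold change -0.70 ± 0.37 SE, edgeR adjusted p = 0.270). In LN it took 3.41% and 3.31% in Themis+/+ and 2.81% and 1.06% in Themis-/- (-0.72 ± 0.37, adjusted p = 0.376). The 2 Themis-/- LN libraries differed, and without replicate 1 the change was -1.68 with an adjusted p of 0.0250. That fit holds 1 Themis-/- LN library, which is assumed to vary like the other groups.

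TRAJ39 took 2.15% and 3.43% of reads in Themis+/+ thymus against 1.26% and 1.89% in Themis-/- thymus (log2 fold change -0.75 ± 0.37 SE, edgeR adjusted p = 0.249). In LN it took 2.65% and 3.12% against 2.08% and 1.54% (-0.61 ± 0.37, adjusted p = 0.477). Both genotypes were separate in both tissues, by less than the test required.

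TRAJ43 had opposite directions in the 2 tissues by reads. It took 1.51% and 2.03% in Themis+/+ thymus, 1.33% and 1.21% in Themis-/- thymus, 1.42% and 1.23% in Themis+/+ LN and 2.32% and 1.62% in Themis-/- LN. The interaction of genotype and tissue was 1.03 ± 0.67 on the log2 scale (edgeR adjusted p = 0.999). By merged sequences TRAJ43 was lower in Themis-/- LN too, at 1.15% and 1.27% against 1.95% and 1.68%.

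By reads, both Themis-/- libraries lay below both Themis+/+ libraries for 6 of 9 members in the thymus, where 37.2% of all segments did, and for 3 of 9 in LN, where 25.6% did. In the other direction there were 0 members in the thymus and 1 in LN, TRAJ43, with 30.2% and 23.3% of all segments. Counted by merged sequences, both Themis-/- libraries lay below both Themis+/+ libraries for 6 of 9 members in the thymus and for 9 of 9 in LN. Over all 43 segments this was so for 37.2% in the thymus and 34.9% in LN, and 0 members lay above, as did 30.2% and 27.9% of all segments. TRAJ45 had the widest gap in LN, with 3.12% and 3.01% against 1.84% and 1.76%. The same edgeR test on merged sequences called 0 of 9 members in either tissue and 0% of all segments, with adjusted p = 0.196 and 0.160 for TRAJ45.

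**Figure D3:**
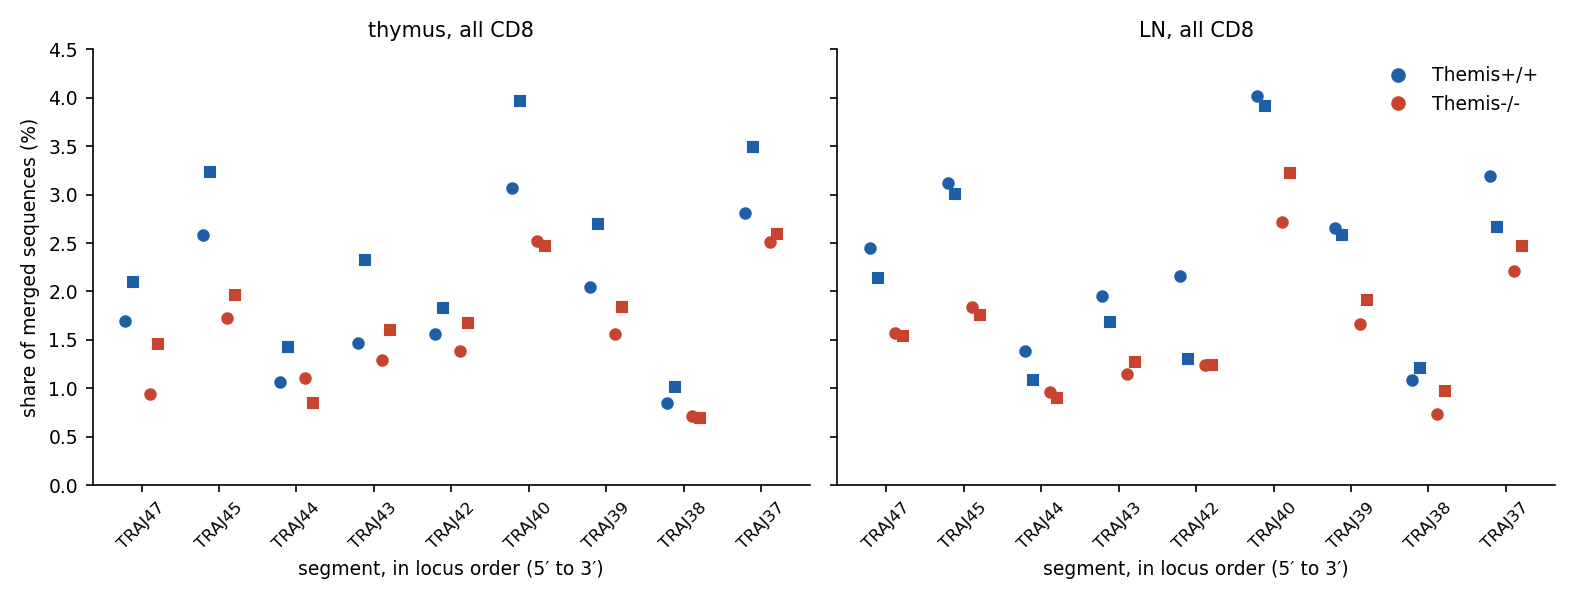
Percent of merged CDR3 sequences with each member segment, in locus order, in thymus (left) and LN (right) all CD8 libraries, blue for Themis+/+ and red for Themis-/-, circles for replicate 1 and squares for replicate 2. In LN both red points lie below both blue points for all 9 segments, and in the thymus for 6 of them.

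The blocks on both sides of the members were also less used without Themis. By merged sequences TRAJ48 to TRAJ61 took 11.2% to 14.8% in Themis-/- and 14.6% to 21.8% in Themis+/+ libraries (exact permutation test within tissues, two-sided, p = 0.111; by reads p = 0.0556), whereas TRAJ1 to TRAJ9 took 10.7% to 13.9% and 4.18% to 10.4%. TRAJ30 to TRAJ36, the next block downstream, took 16.3% to 16.9% in Themis-/- and 17% to 19.3% in Themis+/+ libraries (p = 0.0556, exact, the smallest possible). The log2 ratio of the members to TRAJ48 to TRAJ61 differed by -0.021 between genotypes (exact permutation test, two-sided, p = 0.944). The ratio to TRAJ30 to TRAJ36 was lower in Themis-/- by -0.32 (exact permutation test, two-sided, p = 0.0556, the smallest possible), and by reads by -0.20 (p = 0.111, exact). Across the 8 all CD8 libraries the segments whose read share followed the members most closely were TRAJ49, TRAJ48 and TRAJ56, with Pearson's r of 0.97, 0.89 and 0.78. These are shares of the same 8 libraries and describe them only.

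**Figure D4:**
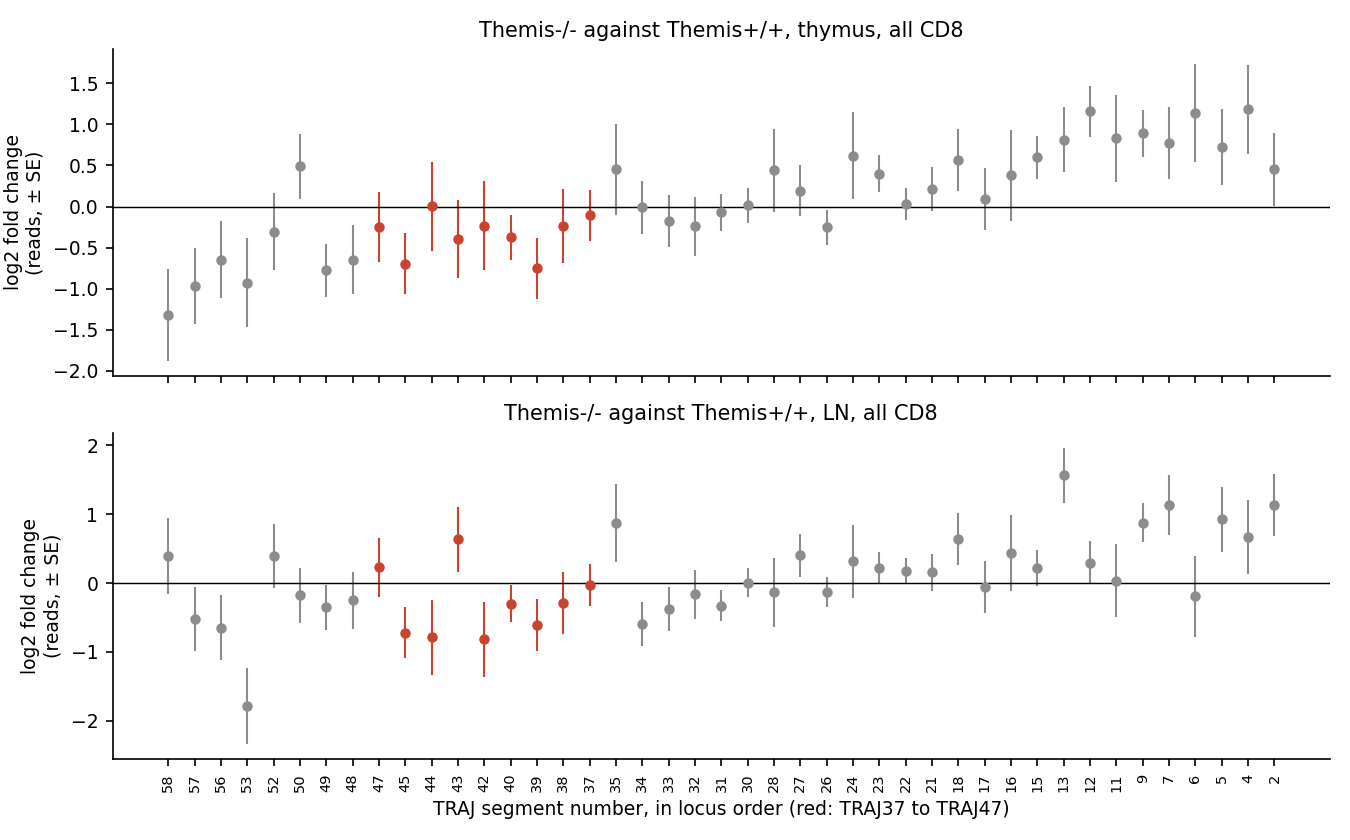
Log2 fold change of reads, Themis-/- against Themis+/+, with its SE from edgeR for each of the 43 TRAJ segments in locus order, in thymus (top) and LN (bottom) all CD8 libraries, with TRAJ37 to TRAJ47 in red. The members lie on the negative side for 8 of 9 segments in the thymus and 7 of 9 in LN, between the V-proximal segments on the left and the mostly positive segments on the right.

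Over both genotypes the LN and thymus libraries overlapped. The LN libraries had 15.4% to 21.2% of reads with a member and the thymus libraries 13.6% to 21.9% (difference 1.39 percentage points, exact permutation test within genotypes, two-sided, p = 0.389, n = 8). Within Themis-/- mice the tissues did not overlap, with 16.1% and 15.4% in LN against 13.6% and 14.1% in the thymus (p = 0.333, exact, the smallest possible). Without replicate 1 of each group the difference over both genotypes was -1.07. In edgeR 0 of 9 members passed between LN and thymus in Themis+/+ or in Themis-/- mice, with 0% of all segments called and 0 members at an unadjusted p under 0.05, against 2 of 43 segments in each genotype, and 0 of 9 for the interaction of genotype and tissue.

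The members paired mostly with the V families that were also common among the other J segments. TRAV12 took 17.3% ± 1.06 (SD, n = 8 libraries) of member reads, TRAV6 15.0% ± 3.55 and TRAV7 13.3% ± 2.54, against 19.2%, 15.1% and 12.9% of reads of the other segments. TRAV9 took 2.41% ± 0.944. The sign-flip permutation test over 8 libraries (exact) cannot pass a single family when adjusted over 22, since its smallest p of 0.00781 becomes 0.172. TRAV10 was at that limit, with 1.34% of member reads and 2.71% of the rest, lower in 8 of 8 libraries. TRAV5 took 2.61% of member reads and 1.39% of the rest (adjusted p = 0.206, exact), and TRAV21 1.5% and 0.752% (adjusted p = 0.206, exact), each higher in 7 of 8 libraries.

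J-proximal V families set the members, taken as a block, apart from the blocks on either side. TRAV17, TRAV18, TRAV19 and TRAV21 lie near the J-side end of the V cluster. TRAV20, which lies between TRAV19 and TRAV21, was not counted with them and took 0% to 0.325% of member reads, and TRAV23 took none. Together the 4 families took 3.84% ± 1.41 (SD, n = 8) of member reads, against 12.8% ± 3.03 in TRAJ48 to TRAJ61 and 0.953% ± 0.415 in TRAJ30 to TRAJ36. The members were lower than the upstream block and higher than the downstream block in 8 of 8 libraries (sign-flip permutation test, exact, two-sided, p = 0.00781 for each, the smallest possible). Merged sequences gave 4.22%, 13.3% and 1.23%, with the same p. Single members were not uniform, from 1.36% ± 1.37 of reads in TRAJ39 to 7.27% ± 6.58 in TRAJ47 (SD, n = 8).

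Of single families, TRAV19 took 1.64% ± 0.501, TRAV21 1.5% ± 0.872 and TRAV17 0.705% ± 0.469 of member reads, and TRAV18 was at 0 in all 8 libraries, against 0% to 0.136% of the reads of other segments. Seen from the V side, 20.9% of merged TRAV19 sequences used a member and 67.5% used TRAJ48 to TRAJ61. The corresponding shares were 16.6% and 10.4% for TRAV12. For TRAV5, which is not among the J-proximal families counted here, they were 26.5% and 22.3%. The share with a member therefore did not set TRAV19 apart, whereas the share with TRAJ48 to TRAJ61 was well above that of TRAV12 and TRAV5.

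Within the members the J-proximal share was lower without Themis. Themis+/+ thymus libraries had 4.60% and 5.83% of member reads with these 4 families, and Themis-/- thymus libraries had 2.68% and 3.35%. In LN the values were 5.02% and 4.67% against 2.99% and 1.61%. All 4 Themis-/- libraries lay below all 4 Themis+/+ libraries (difference -2.37 percentage points, exact permutation test within tissues, two-sided, p = 0.0556, the smallest possible). By merged sequences the difference was -1.77, from 3.09% to 3.92% against 3.91% to 5.96%, so that the ranges just overlapped. In TRAJ48 to TRAJ61 the same test gave -3.17 points of reads (p = 0.167, exact) and -2.89 points of merged sequences (p = 0.0556, exact). In TRAJ30 to TRAJ36 it gave 0.312 points of reads, higher in Themis-/- (p = 0.0556, exact), and -0.293 points of merged sequences (p = 0.111, exact).

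**Figure D5:**
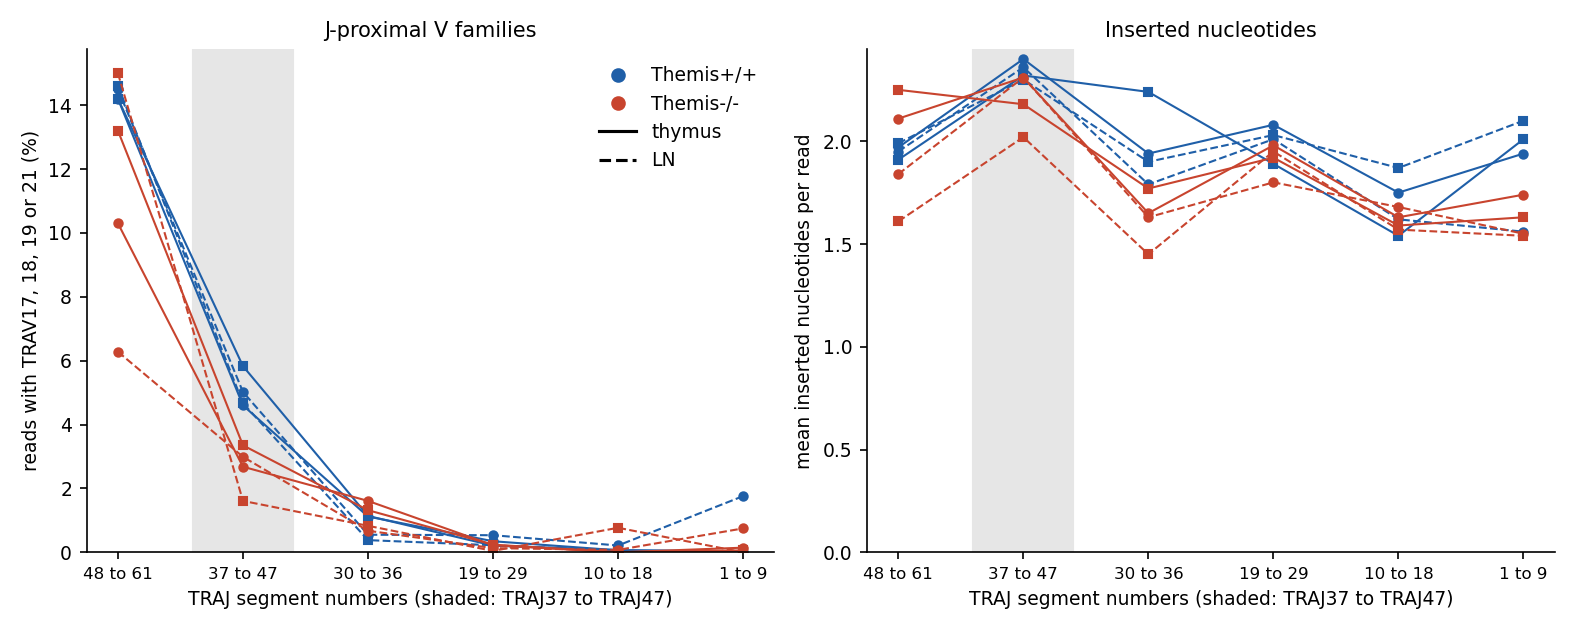
Percent of reads with TRAV17, TRAV18, TRAV19 or TRAV21 (left) and mean inserted nucleotides per read (right) in 6 blocks of J segments in locus order, 1 line for each all CD8 library, blue for Themis+/+ and red for Themis-/-, solid for thymus and dashed for LN. In the shaded block, TRAJ37 to TRAJ47, all 4 red lines lie below the blue lines on the left, and on the right 7 of 8 libraries have their highest mean.

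Among the single V families of member reads, 1 of 22 passed the edgeR test between genotypes in LN (4.55% of families) and 0 of 22 in the thymus. This was TRDV2, a V segment of the delta locus that lies inside the alpha locus and can join TRAJ segments. It had 0.542% and 0.613% of member reads in Themis+/+ LN, from 7 and 4 merged sequences, and 0 reads in both Themis-/- LN libraries, where 3 reads would be at most 0.0279%. That is at least 19.4-fold lower (3 reads a library; edgeR adjusted p = 0.0262). In the thymus it had 0.710% and 0.385% against 0.116% and 0.282%. The call rested on few sequences. It was lost in 6 of 8 fits that left out 1 library, and by distinct sequences as deposited the adjusted p was 0.112.

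TRAV3, a multi-copy family, took 13.3% and 16.1% of member reads in Themis+/+ LN and 4.80% and 7.82% in Themis-/- LN (log2 fold change -1.36 ± 0.45 SE, edgeR adjusted p = 0.0927). It passed by distinct sequences as deposited (-0.78, adjusted p = 0.0348) and without Themis-/- LN replicate 2 (-1.62, adjusted p = 0.0310), which leaves 1 library in that group, and by merged sequences the change was -0.32 (adjusted p = 0.418). TRAV7 in the thymus showed no call by reads, 11.7% and 13.5% against 14.7% and 13.5%, and by merged sequences 11.4% and 10.3% against 14.3% and 13.4% (log2 0.41, adjusted p = 0.0336). Shares are given by family because copies within a TRAV family can share reads, and a single V gene named with a sequence is the best hit as deposited. Between LN and thymus 0 of 22 families passed in either genotype, with 1 at an unadjusted p under 0.05 in Themis+/+ and 2 in Themis-/- mice, where DESeq2 called 1, TRDV2.

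The CDR3 of member reads was 40.6 to 41.1 nucleotides long on average in the 8 all CD8 libraries. Themis-/- means lay at or below Themis+/+ means, 40.8 and 41 (difference -0.226 nucleotides, exact permutation test within tissues, two-sided, p = 0.0556, the smallest possible, n = 8). LN and thymus differed by 0.0465 (p = 0.556, exact). By segment the length ran from 36.9 ± 0.584 (SD, n = 8) in TRAJ43 and 38.8 ± 0.611 in TRAJ47, which have the shortest CDR3 parts, to 43.8 ± 0.590 in TRAJ42, which has the longest. Between these ends the order was not that of the germline, since TRAJ39, with 32 bases, had a mean of 40.9 and TRAJ37, with 29, a mean of 42.1. The members were shorter than TRAJ48 to TRAJ61 by a mean of 1.96 nucleotides and longer than TRAJ30 to TRAJ36 by 1.79, in 8 of 8 libraries each (sign-flip permutation test, exact, p = 0.00781).

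Member joints carried 2.02 to 2.40 inserted nucleotides per read, meaning bases between the end of the V and the start of the J alignment. Themis-/- libraries had a mean of 2.20 and Themis+/+ libraries of 2.34 (difference -0.141, exact permutation test, two-sided, p = 0.111). The share of reads with any insertion went the other way, by 1.74 percentage points. LN and thymus means were 2.24 and 2.30 (p = 0.500, exact). The members had 0.493 ± 0.0963 (SD, n = 8 libraries) more inserted nucleotides than the other segments, with TRAJ24 left out, and were higher in 8 of 8 libraries (sign-flip permutation test, exact, p = 0.00781, the smallest possible). TRAJ24 was left out after its values were seen.

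Within the members insertions ran from 1.82 ± 0.632 in TRAJ38 to 2.65 ± 0.560 in TRAJ47, a spread between segments of the same order as that between libraries. Trimming of the J end differed more: TRAJ39 lost 4.58 ± 0.529 bases on average and TRAJ40 3.75 ± 0.456, whereas TRAJ37 lost 0.877 ± 0.480. In TRAJ47 the mean was 0.222 ± 0.750 bases gained past the germline start, since bases that mirror an untrimmed J end are counted there as a gain.

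Most member sequences were seen in only 1 library, and each all CD8 library held just 306 to 1690 merged member sequences. Sharing was not taken for the other segments. Of 6859 different merged member sequences in all CD8 libraries, 91.4% were found in 1 library and 44 in 4 or more, and pairs of libraries shared between 9 and 108. For each segment the CDR3 protein sequence found in most libraries was taken, and its nucleotide form with the most reads is printed with the inserted bases in capitals, to show the joints that recurred.
TRAJ47 with TRAV7-5, protein sequence in 7 of 8 libraries: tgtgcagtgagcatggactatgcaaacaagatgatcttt
TRAJ45 with TRAV16D-DV11, 7 of 8: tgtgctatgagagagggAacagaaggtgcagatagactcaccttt
TRAJ44 with TRAV3-3, 4 of 8: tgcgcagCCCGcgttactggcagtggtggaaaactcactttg
TRAJ43 with TRAV7-6, 6 of 8: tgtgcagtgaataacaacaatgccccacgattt
TRAJ42 with TRAV3-3, 6 of 8: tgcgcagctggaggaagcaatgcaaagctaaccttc
TRAJ40 with TRAV14-3, 6 of 8: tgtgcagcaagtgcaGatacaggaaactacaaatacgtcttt
TRAJ39 with TRAV7-5, 7 of 8: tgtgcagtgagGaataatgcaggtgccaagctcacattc
TRAJ38 with TRAV7-5, 5 of 8: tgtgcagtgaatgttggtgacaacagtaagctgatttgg
TRAJ37 with TRAV12-2, 7 of 8: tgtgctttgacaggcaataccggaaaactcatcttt
Of these 9 joints, 5 held no inserted base, 3 held 1 and the TRAJ44 joint held 4. The lowercase c after those 4 is not germline: it mirrors the untrimmed J end and is counted with the J. The TRAJ47 form itself was in 6 libraries and the TRAJ40 form in 5, whereas the TRAJ44 and TRAJ42 forms were in 1 each. All nucleotide forms together, each protein sequence took on average 0.00463% of reads for TRAJ38 to 0.0472% for TRAJ37. The TRAJ43 protein sequence had 159 and 70 reads in Themis+/+ thymus and 25 and 45 in Themis-/- thymus. It had 10 and 0 reads in Themis+/+ LN and 0 and 2 in Themis-/- LN. The TRAJ40 protein sequence was also lower in Themis-/- thymus, with 10 and 0 reads against 20 and 40. Others went the other way there. The TRAJ44 protein sequence had 22 and 135 reads against 0 and 0, and that of TRAJ39 7 and 55 against 2 and 3. These are raw reads of libraries of unequal depth, and single CDR3s were not tested between genotypes.

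The second comparison asks whether cells selected for the Vα3.2 chain use these segments as all CD8 cells do. Sorted and all CD8 libraries also differ in export format, so sort and processing cannot be told apart here either. Every sorted library lay below every all CD8 library, with 5.09% to 10.9% of reads against 13.6% to 21.9% (difference -9.11 percentage points, exact permutation test within the 4 genotype and tissue groups, two-sided, p = 0.00154, the smallest possible, n = 16). By merged sequences the shares were 5.16% to 8.70% and 13.8% to 22.1%, with the same p. The upstream block was apart too. TRAJ48 to TRAJ61 took 4.08% to 8.50% of merged sequences in sorted and 11.2% to 21.8% in all CD8 libraries. TRAJ30 to TRAJ36 overlapped, at 8.33% to 17.2% and 16.3% to 19.3%. TRAJ1 to TRAJ9 went the other way, with 20.4% to 32.1% in sorted and 4.18% to 13.9% in all CD8 libraries.

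The sort selects a single V gene, since the paper states that its antibody recognises only TRAV9N-3 chains. The share was also taken among TRAV9 rearrangements only, which in the all CD8 libraries include other genes of the family. Neither this set nor the subgroups below held that V gene constant. Merged TRAV9 sequences used a member in 5.37% to 8.17% of cases in the sorted and 9.87% to 22.0% in the all CD8 libraries (difference -7.07 points, exact permutation test, two-sided, p = 0.00154). Within the TRAV9-3 and TRAV9-4 subgroups, which made up 98.6% to 100% of TRAV9 reads in the sorted and 59.4% to 86.2% in the all CD8 libraries, the shares were 5.44% to 8.06% and 6.67% to 18.4% (difference -4.59, exact permutation test, p = 0.00463). There the ranges overlapped, and each all CD8 library gave only 7 to 27 member sequences. This restriction was added after the values were seen.

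By segment, the edgeR test on reads called 0 of 9 members in LN, where 9.30% of all segments passed, and 1 of 9 in the thymus, where 2.33% passed. At an unadjusted p under 0.05 there were 2 members in LN, among 11 of 43 segments, and DESeq2 called 4 (25.6% of all segments). All 9 fitted changes were negative in both tissues, with medians of -1.30 in LN and -1.45 in the thymus against -0.20 and -0.59 over all segments. On merged sequences 9 of 9 members were called in LN and 5 of 9 in the thymus, and so were 69.8% and 37.2% of all segments. With the sequences as deposited the counts were 6 and 3 members, with 60.5% and 30.2% of all segments.

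TRAJ38 was the member called in the thymus. It had 0 reads in 3 of the 4 sorted thymus libraries, where 3 reads would be 0.0131% to 0.0290%, and 0.126% in the fourth, Themis+/+ replicate 2, from 2 sequences. The 4 all CD8 thymus libraries had 0.447% to 0.629% (edgeR adjusted p = 0.0280). The call was lost in 10 of 16 fits that left out 1 library, and the 6 member sequences in each replicate 1 of the sorted thymus limit what it can show. In sorted LN TRAJ38 had 0.227% and 0.0417% in Themis+/+ and 0.147% and 0.122% in Themis-/-, against 0.513% to 0.924% in all CD8 LN (log2 fold change -2.29 ± 1.0 SE, adjusted p = 0.180).

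TRAJ40, the leading member in all CD8 cells, had 0.736% and 2.65% of reads in sorted Themis+/+ LN and 0.915% and 1.06% in sorted Themis-/- LN, against 2.60% to 4.43% in all CD8 LN (log2 fold change -1.30 ± 0.60 SE, edgeR adjusted p = 0.180). In the sorted thymus it ranged from 0.511% to 6.04%, and 6.04% was 1 CDR3 sequence of Themis+/+ replicate 1. Single sequences therefore set the read shares there.

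Within the sorted cells the genotypes and tissues were compared in the same way. The members took 10.6% and 7.06% of reads in Themis+/+ thymus, 10.9% and 10.7% in Themis-/- thymus, 5.35% and 8.30% in Themis+/+ LN and 5.09% and 5.81% in Themis-/- LN. Over both tissues the genotype difference was 0.317 percentage points (exact permutation test, two-sided, p = 0.667), and over both genotypes the tissue difference was -3.67 (p = 0.111, exact). Within single groups, the genotypes did not overlap in the thymus, and LN and thymus did not overlap in Themis-/- mice (p = 0.333 for each, exact, the smallest that 2 against 2 allows). By merged sequences the tissue difference was 0.208. In edgeR 0 of 9 members passed in any sorted comparison, with 0% of all segments called and 1 member at an unadjusted p under 0.05, in Themis-/- mice between tissues, where it was the only 1 of 43 segments. Mean CDR3 lengths ran from 38.4 to 42.2 nucleotides and mean insertions from 0.784 to 3.34, with p of at least 0.389 (exact) for the genotype and tissue differences taken over both tissues or genotypes. In LN alone the mean lengths of the genotypes did not overlap, at 41.7 in Themis-/- and 41.1 in Themis+/+ (p = 0.333, exact, the smallest possible).

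Of 262 member CDR3 protein sequences in sorted LN, 1 was present in all 4 libraries. It joined TRAV9N-3 to TRAJ39 with 1 inserted base in capitals.
TRAJ39 with TRAV9N-3: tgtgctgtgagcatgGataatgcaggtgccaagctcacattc
It had 40 and 53 reads in Themis+/+ and 35 and 15 in Themis-/- LN, or 0.0680% to 0.246% of each library, all from this 1 nucleotide sequence.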

How the data were processed

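TCRα transcripts were amplified by 5′ RACE with template switching and a constant region primer, sequenced on MiSeq and assembled by the authors with MiXCR into 1 table a library. The submitters' processing notes name CASAVA 1.4 and mm9. No MiXCR version is named in the sources used here. The deposited values are counts of reads per CDR3 nucleotide sequence, with their fraction of the library, V and J hits and alignment reference points. The deposited fraction was not used further, and no column of another series was present. Counts were used as deposited. All deposited CDR3 sequences were in frame and free of stop codons, and no sequence had equal best J hits.

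Reads were summed per TRAJ segment, or per V family within member rows, and tested with edgeR 4.0.16 (quasi-likelihood, TMM, at least 10 reads in at least 2 libraries) on the 8 all CD8, 8 sorted or 16 libraries, with Benjamini-Hochberg adjustment over all segments (43) or families (22). DESeq2 1.42.0 served as an alternative. On simulated counts for Themis-/- against Themis+/+ in LN over 43 segments, edgeR called 2 of 5 segments changed by a log2 of 1, 4 of 5 changed by a log2 of 2 and 0 of 33 unchanged ones. That was a single draw with a common dispersion of 0.0824 for all segments, so it does not measure power or the rate of false calls. Sorted libraries were not simulated. Single values (joint share, mean length, mean inserted nucleotides) were compared by exact permutation within tissues or genotypes (36 arrangements), which cannot reach 0.05. Within 1 tissue 2 libraries against 2 give at best 0.333. V families entered by size (the 3 largest), the sort (TRAV9), position (TRAV17, TRAV18, TRAV19, TRAV21) or an adjusted p under 0.05. TRAV3, TRAV5, TRAV10, TRAV20 and TRAV23 fall outside this rule and were named after their values were seen. Members and lists were chosen with earlier results of these data known. Tests by blocks of J segments, of TRAV9 rows, by sign flips and on merged sequences were added after the data were seen. Libraries shared replicate numbers across groups, but nothing in the labels ties them to a common animal or experiment, and the numbers were not used in the main tests. The paper states that each genotype's data were combined from 2 experiments. The replicate number may therefore stand for an experiment, which the labels do not say. Limits of 3 reads cover counting error only. Coordinates and germline sequences are from GENCODE M21 (GRCm38), not from the tables. 1 label field names the sorted cells Va2.3, the others Va3.2.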

Additional observations from a re-analysis of the deposited data

How the results depend on the processing

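Across 41 results, 255 of the values obtained with 1 library or replicate left out and 254 of those under other alternatives counted as unchanged. For single values this means the same sign, whatever the size. For fold changes it means the same sign and side of the threshold. A count of calls had to be equal to the main count or within a set ratio of it. With 1 library or replicate left out, 23 counts of calls fell outside that ratio, 16 fold changes lost a call, 6 gained one and 4 values turned sign. Under the other alternatives, 10 counts of calls fell outside it, 3 fold changes lost a call, 10 gained one and 9 values turned sign. A group left with 1 library was assumed to vary like the others. The count of members called between sorted and all CD8 libraries depended most on what was counted. In LN it was 0 by reads with edgeR, 4 with DESeq2, 6 by distinct sequences and 9 by merged sequences, and it ranged from 0 to 3 with 1 library left out, with 3 without either sorted Themis+/+ thymus library. In the thymus it was 1 by reads, 3 by distinct and 5 by merged sequences, 0 with the replicate number as a block, and 0 to 5 with 1 library left out, with 5 without sorted Themis+/+ thymus replicate 2 and 4 without sorted Themis-/- thymus replicate 2. The cause was not tested.

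Between genotypes in LN, 0 to 1 members were called with 1 library left out. V families called between genotypes numbered 1 in the thymus by merged sequences, against 0 by reads. In LN they numbered 0 by merged sequences, 0 with the replicate block and 0 to 6 with 1 library left out, against 1 by reads, with 6 without Themis-/- replicate 2. Between tissues of Themis-/- mice 1 family was called by DESeq2 and 0 to 1 with 1 library left out. The change of TRAJ43 in LN was -0.26 by distinct and -0.47 by merged sequences, the opposite sign to reads. TRAJ40 in sorted against all CD8 thymus ranged from -1.30 to 0.28 without single libraries, the ends being sorted Themis+/+ replicates 1 and 2.

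Among single values, the LN minus thymus share turned sign in sorted cells, to 0.199 by distinct and 0.208 by merged sequences, and in all CD8 cells ran from -1.07 to 3.86 without replicate 1 or 2. Inserted nucleotides turned sign for genotype in all CD8 cells as the percent of reads with any insertion (1.74), and for tissue in all CD8 cells by merged sequences (0.0247). For tissue in sorted cells they gave -0.274 by distinct sequences, -0.218 by merged sequences and -8.18 as a percent of reads, and -0.190 to 0.476 without replicate 1 or 2. Sorted CDR3 length between genotypes ran from -0.963 to 0.576. Merged sequences were chosen after seeing the data. With 6 member sequences in 2 sorted thymus libraries, small shares there cannot be resolved.

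The labels do not say that equal replicate numbers pair libraries. Deviations of same-numbered libraries correlated between -0.67 and 0.36 over 43 segments, and with the replicate block, same-numbered or crossed, 0 members and 0 segments were called in each genotype and tissue comparison. The crossed pairing was added after seeing the data.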
